A study of Mus musculus with 8 samples.

Results

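The genes described here encode the chromosome axis and the synaptonemal complex of meiotic prophase. The 10 members were Sycp1, Sycp2, Sycp3, Syce1, Syce2, Hormad1, Smc1b, Stag3, Rec8 and Mei1, and their probes were found by gene symbol or older synonym in the probe annotation. Of the 10 members, 9 had 1 probe each among the 25697 probes of the array, which represent 16590 named genes. The probe annotation lists no probe for Syce1, and Syce1l, a separate gene, was not taken for it.

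The cells were mouse embryonic fibroblasts of the genotype Trp53-/- Dnmt1+/+, so that both groups lacked the tumour suppressor p53 and carried an intact gene for the maintenance DNA methyltransferase. Control cells received DMSO, the solvent. Treated cells received 5-aza-dC (decitabine), a nucleoside drug that is built into DNA and depletes the cell of DNA methyltransferases, for 72 h at 1 µM per the labels. The methods of the study name a lower dose, and the true dose is not settled. Control and 5-aza-dC had 2 biological replicates apiece, each hybridised to 2 technical arrays. The age of the embryos is not given. The labels do not say whether the replicates were separate cultures, so p-values measure the spread between these samples, which may be technical.

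The signal of a probe is its mean bead intensity with no background subtracted, and its detection p gives how large a share of the negative controls shines brighter. A probe was called detected on an array at a detection p under 0.05. Mean signal was 295 to 376 intensity units per array and 12841 to 13595 probes were detected. Of the 9 fibroblast markers on the array 8 were detected, among them Col1a1, Col1a2, Vim, Pdgfra, Pdgfrb and Thy1, while Fap was undetected on every array. No probe for Trp53 is listed in the annotation, so its loss was not checked, and Dnmt1 was detected on every array.

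In meiosis the sister chromatids of each chromosome are tied by cohesin rings with meiosis-specific subunits and are arrayed as loops along a protein axis. The axes of homologous chromosomes, the lateral elements, are then joined along their length by transverse filaments that meet in a central element, and the finished structure is the synaptonemal complex. In mouse, fibroblasts do not build these structures. Many of the genes are held silent outside the germ line by promoter DNA methylation and by PRC1.6, a Polycomb-related complex that binds DNA through E2F6 and through MGA with MAX. The comparison with 5-aza-dC addresses which transcripts appear when DNA methylation is lowered.

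After 5-aza-dC, transcripts of 3 members were called higher, namely Stag3, the meiosis-specific cohesin subunit, Syce2, a central element protein, and Sycp1, the transverse filament protein. Of these, 2 were more than 2-fold higher, as were 7.50% of all genes tested. Stag3 rose 4.67-fold, Syce2 rose 2.11-fold and Sycp1, undetected in control, rose at least 1.33-fold. The other 6 members with a probe, Sycp2, Sycp3, Hormad1, Smc1b, Rec8 and Mei1, did not pass the detection filter (detection on 2 or more arrays) and went untested. The call rests on limma with an adjusted p under 0.05 (Benjamini-Hochberg over all 9502 genes tested), and 26.3% of all genes tested were called higher and 25.7% lower (52.0% in either direction). None of the 3 members tested was called lower, with 0 also at an unadjusted p under 0.05. Sycp1 passed the filter through its 5-aza-dC arrays alone, so that it had to differ, and the count of 3 is given as a description. In cell populations such as these, a change in the number of cells that express a gene and a change in RNA per cell cannot be told apart.

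**Figure D1:**
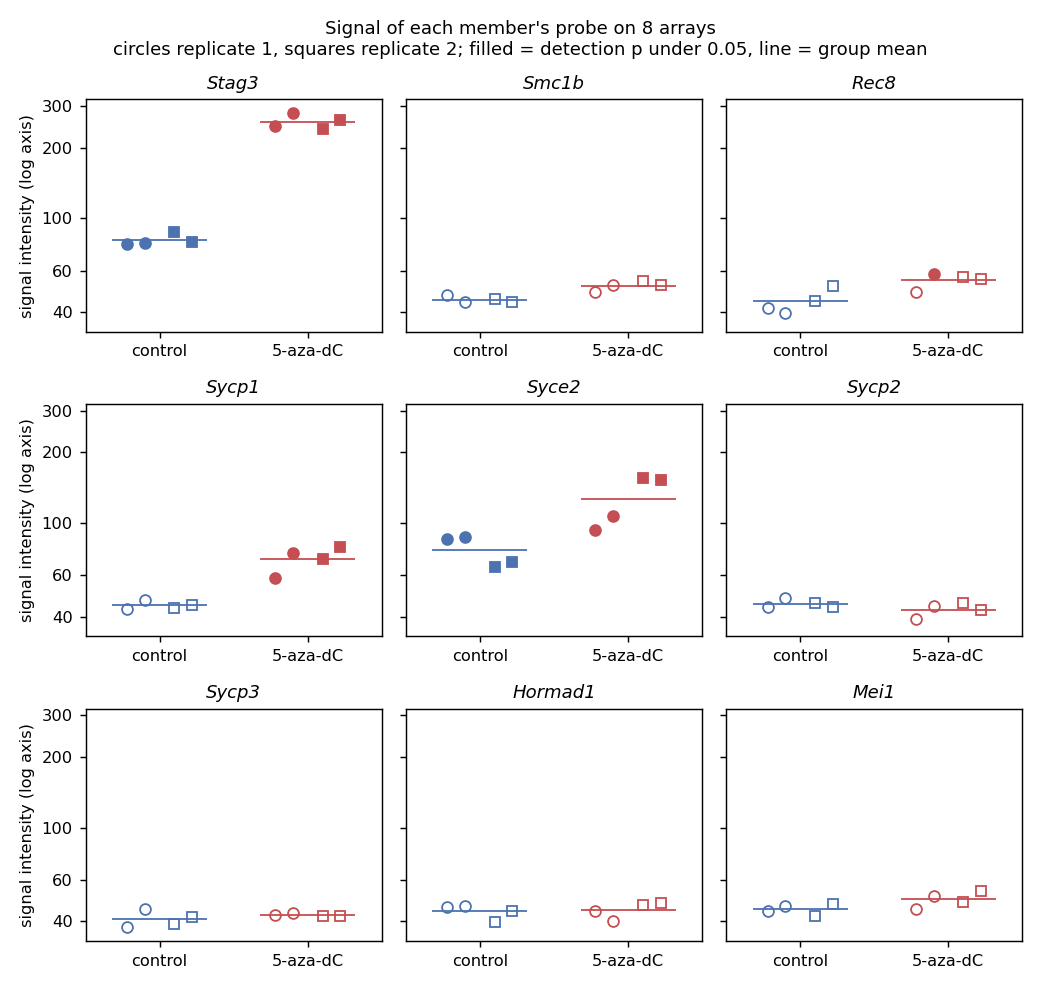
Signal intensity (log axis) of the probe of each of 9 members on each array, with circles for replicate 1, squares for replicate 2, filled symbols for arrays on which the probe was detected and lines for group means. Stag3 lies at 78.2 to 87.2 in control and 239 to 281 in 5-aza-dC, Sycp1 turns from undetected to detected on all 4 arrays, and Sycp2, Sycp3 and Hormad1 stay undetected.

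The promoter windows of the 3 members called higher are shown here beside those of Sycp3 and Hormad1, which carry the same motifs but were undetected. Whether the motifs play a part in the calls was not tested. Each window runs from 250 bases before to 50 bases after an annotated start site (RefSeq, GRCm38.p6), read 5′ to 3′ on the strand of the gene. Capitals mark matches to TCCCGC, the core bound by E2F factors, searched on both strands (GCGGGA is its reverse complement), and to CACGTG, the E-box bound by MGA with MAX, which reads the same on both strands. No match of one motif overlapped a match of the other in these windows. For Syce2 the second of 2 windows and for Hormad1 the first of 2 nearly identical windows are shown.
Stag3, chr5:138280259-138280558, plus strand: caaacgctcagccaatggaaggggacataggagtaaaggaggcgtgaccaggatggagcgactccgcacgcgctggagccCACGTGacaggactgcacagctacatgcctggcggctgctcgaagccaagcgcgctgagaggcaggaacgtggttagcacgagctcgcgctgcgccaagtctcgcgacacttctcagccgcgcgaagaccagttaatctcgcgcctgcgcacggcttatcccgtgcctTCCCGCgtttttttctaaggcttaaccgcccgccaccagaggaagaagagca
Syce2, chr8:84872008-84872307, plus strand: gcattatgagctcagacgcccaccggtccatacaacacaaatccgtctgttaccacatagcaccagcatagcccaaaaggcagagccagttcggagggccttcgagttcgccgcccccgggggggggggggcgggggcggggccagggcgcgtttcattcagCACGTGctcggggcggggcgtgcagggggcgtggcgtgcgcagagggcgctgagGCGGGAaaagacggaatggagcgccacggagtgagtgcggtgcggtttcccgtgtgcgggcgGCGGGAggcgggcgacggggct
Sycp1, chr3:102936051-102936350, minus strand: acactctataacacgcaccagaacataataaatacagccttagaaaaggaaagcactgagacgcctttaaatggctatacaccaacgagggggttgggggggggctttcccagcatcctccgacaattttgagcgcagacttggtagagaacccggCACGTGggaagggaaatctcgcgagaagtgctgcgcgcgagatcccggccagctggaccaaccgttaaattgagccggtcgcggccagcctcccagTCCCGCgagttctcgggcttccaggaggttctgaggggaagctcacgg
Sycp3, chr10:88459337-88459636, plus strand: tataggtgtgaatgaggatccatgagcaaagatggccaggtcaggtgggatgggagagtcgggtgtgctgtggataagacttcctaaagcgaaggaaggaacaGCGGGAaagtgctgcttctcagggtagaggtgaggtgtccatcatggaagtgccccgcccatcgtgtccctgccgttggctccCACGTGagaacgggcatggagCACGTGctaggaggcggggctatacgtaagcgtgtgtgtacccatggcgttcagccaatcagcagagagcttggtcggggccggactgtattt
Hormad1, chr3:95559427-95559726, plus strand: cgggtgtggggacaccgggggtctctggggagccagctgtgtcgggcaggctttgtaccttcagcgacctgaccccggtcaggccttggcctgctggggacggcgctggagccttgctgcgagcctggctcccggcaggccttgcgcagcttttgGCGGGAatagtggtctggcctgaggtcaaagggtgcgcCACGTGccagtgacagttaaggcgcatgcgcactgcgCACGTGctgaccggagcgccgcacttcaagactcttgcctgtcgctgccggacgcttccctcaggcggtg

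All 10 members had a window in the promoter table, Syce1 included. TCCCGC was present in a window of 7 members, namely Stag3, Smc1b, Rec8, Syce2, Sycp1, Sycp3 and Hormad1, and CACGTG in a window of 5, namely Stag3, Syce2, Sycp1, Sycp3 and Hormad1. Those 5 members had both motifs in the same window, while Sycp2, Syce1 and Mei1 had neither. In the promoter table as a whole, 20.0% of the 32851 windows held TCCCGC, 7.15% held CACGTG and 1.99% held both. Those shares are per window. Counted likewise, 9 of the 12 windows of the members held TCCCGC and 6 held CACGTG, with the nearly identical Hormad1 windows counted separately. The motifs were therefore shared by members that were called higher and members that were not detected. In Stag3 and Sycp1 the TCCCGC match lay at the start site, from -2 to 3 and from 2 to 7 with the start base counted as 0, and the E-box lay upstream, from -170 to -165 in Stag3 and from -94 to -89 in Sycp1.

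CpG dinucleotides, the substrate of DNA methyltransferases, were frequent in most of these windows. The observed over expected CpG ratio was 1.06 for Stag3, 1.08 for Smc1b, 0.704 and 0.962 for the Syce2 windows and 0.874 for Sycp1, against a median of 0.384 over all windows. It was 0.716 for Rec8, 0.713 for Hormad1, 0.666 for Sycp3, 0.625 for Syce1, 0.491 for Mei1 and 0.363 for Sycp2. The number of CpG dinucleotides per 300-base window was 30 for Stag3, 29 for Smc1b, 24 for Hormad1, 21 for Sycp1, 18 for Rec8, 15 for Sycp3, 14 for Syce1, 10 for Sycp2 and 8 for Mei1, and the Syce2 windows held 19 and 33, with a median of 7 over all windows. Members with many CpG dinucleotides were found among those called higher and among those that went untested, as Smc1b and Hormad1 were undetected on every array. These are features of the reference sequence, and no methylation data were analysed here.

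Among the meiotic cohesin subunits, Stag3 was the member called higher. Its signal in control was 78.2 and 78.5 intensity units on the arrays of replicate 1 and 87.2 and 79.4 on those of replicate 2. In 5-aza-dC it was 248 and 281 in replicate 1 and 239 and 261 in replicate 2. The groups did not overlap on any array, and Stag3 was detected on all 8, so that a low transcript level was already measured in control. On the background-corrected, quantile-normalised log2 scale its level was 5.65 ± 0.18 in control and 7.87 ± 0.14 in 5-aza-dC (SD, n = 2 per group). The log2 fold change was 2.22 ± 0.13 (SE), with a 95% confidence interval from 1.89 to 2.55 and an adjusted p of 0.000134 (limma). By size of rise Stag3 stood at rank 105 of 9502 genes tested.

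Smc1b, the SMC subunit that replaces Smc1a in meiotic cohesin, was undetected on every array. Its signal was 44.0 to 47.3 in control and 48.5 to 54.3 in 5-aza-dC, with detection p from 0.283 to 0.640 and from 0.107 to 0.212. The treated arrays were all above the control arrays, but at signals that more than 1 in 10 negative controls exceeded. Rec8, the meiotic kleisin that closes the ring, was detected on a single 5-aza-dC array, with a signal of 58.2 and a detection p of 0.0426, and on no control array. Its signal ran from 39.7 to 51.6 in control and from 48.6 to 58.2 in 5-aza-dC, so that the groups overlapped.

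The somatic cohesin subunits gave a reference for these values. All 5 core ring genes, Smc1a, Smc3, Rad21, Stag1 and Stag2, were detected on all arrays and tested by their brightest probe. At that probe 0 of 5 were called in either direction (limma, also 0 at an unadjusted p under 0.05). Their log2 fold changes were 0.16 ± 0.13 for Smc1a, 0.12 ± 0.11 for Smc3, 0.10 ± 0.11 for Rad21, 0.21 ± 0.17 for Stag1 and -0.01 ± 0.18 for Stag2 (SE, adjusted p from 0.336 to 0.979). Over the 4 kept probes of Smc1a the log2 fold change ran from 0.13 to 0.40. Smc3 and Stag2 had 2 kept probes each, from -0.01 to 0.12 and from -0.06 to -0.01. With each probe fitted separately, 6 genes of mitotic cohesin and its regulators were called higher, against 5 at the brightest probes. Whether the added gene was a core gene, such as Smc1a at a less bright probe, was not tested. The count of 0 of 5 therefore holds for the brightest probes only. The rise of Stag3 was thus measured without a called change of its somatic paralogues Stag1 and Stag2, and the difference between the paralogues was not tested.

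Syce2, which together with Syce1 and further proteins forms the central element, was detected on all 8 arrays. Its signal in control was 85.3 and 87.3 in replicate 1 and 65.2 and 68.0 in replicate 2. In 5-aza-dC it was 93.8 and 107 in replicate 1 and 155 and 152 in replicate 2. No treated array overlapped a control array, but replicates differed more than technical arrays did, and 5-aza-dC replicate 1 lay close to control replicate 1. The log2 level was 5.49 ± 0.34 in control and 6.57 ± 0.53 in 5-aza-dC (SD, n = 2 per group). The log2 fold change was 1.08 ± 0.28 (SE, 95% confidence interval 0.40 to 1.75, limma adjusted p = 0.0200), at rank 600 of 9502. Without 5-aza-dC replicate 2 it was 0.70, and without 5-aza-dC replicate 1 it was 1.45. With 1 treated sample left, these fits hold no spread within 5-aza-dC, and their p-values are not given.

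Sycp1, whose coiled coils span the gap between homologues, was undetected on all 4 control arrays and detected on all 4 5-aza-dC arrays. Its control signal was 43.2 and 46.9 in replicate 1 and 43.7 and 44.9 in replicate 2, with detection p from 0.387 to 0.762. In 5-aza-dC the signal was 58.3 and 74.5 in replicate 1 and 70.6 and 79.2 in replicate 2, with detection p from 0.00125 to 0.0263. The groups were fully separate, at signals low on the scale of the array. The measured log2 level was 4.34 in control and 5.29 in 5-aza-dC (limma adjusted p = 0.000799). The filter fixed the direction of that test, and in the fit over all genes without the filter the adjusted p was 0.000288. Against the lowest detected level of each control array, used in place of the undetected values, the rise was at least 1.33-fold. Mouse also has a transcribed pseudogene, Sycp1-ps1, and whether the probe can tell it from Sycp1 was not tested.

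Of the proteins of the lateral elements and axis, Sycp2 and Sycp3, which build the lateral element, were undetected throughout. The signal of Sycp2 was 43.8 to 48.1 in control and 39.0 to 45.7 in 5-aza-dC, and that of Sycp3 was 37.9 to 45.1 and 41.9 to 43.4. Hormad1, a HORMA domain protein that marks axes not yet synapsed, had a signal of 39.7 to 46.3 in control and 40.2 to 47.7 in 5-aza-dC. In all 3 the groups overlapped, and detection p was never below 0.277. Mei1, needed in mouse for meiotic double-strand breaks, was undetected as well, with a signal of 41.9 to 47.4 in control and 45.0 to 53.6 in 5-aza-dC and detection p from 0.133 to 0.648. A change in these genes was not detectable at this signal over background, which does not show that their transcripts were absent.

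A fit without the detection filter placed all 9 members with a probe on 1 scale. Of 16590 genes 29.6% were then called in either direction, 2483 of them higher and 2423 (14.6%) lower. Of the 9 members 5 were called higher, adding Rec8 (log2 fold change 0.27, 95% confidence interval 0.09 to 0.44, adjusted p = 0.0337) and Smc1b (0.16, 0.07 to 0.25, adjusted p = 0.0189), and 0 lower (limma, also 0 lower at an unadjusted p under 0.05). These calls concern probes that were undetected on 8 arrays for Smc1b and on 7 for Rec8, and their SE was 0.04 and 0.07 on the log2 scale. Mei1 (0.09, adjusted p = 0.0955), Sycp2 (-0.07, 0.134), Sycp3 (0.01, 0.846) and Hormad1 (0.00, 0.991) did not pass. The median log2 fold change of the 9 was 0.16, against -0.01 over all genes in the same fit.

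**Figure D2:**
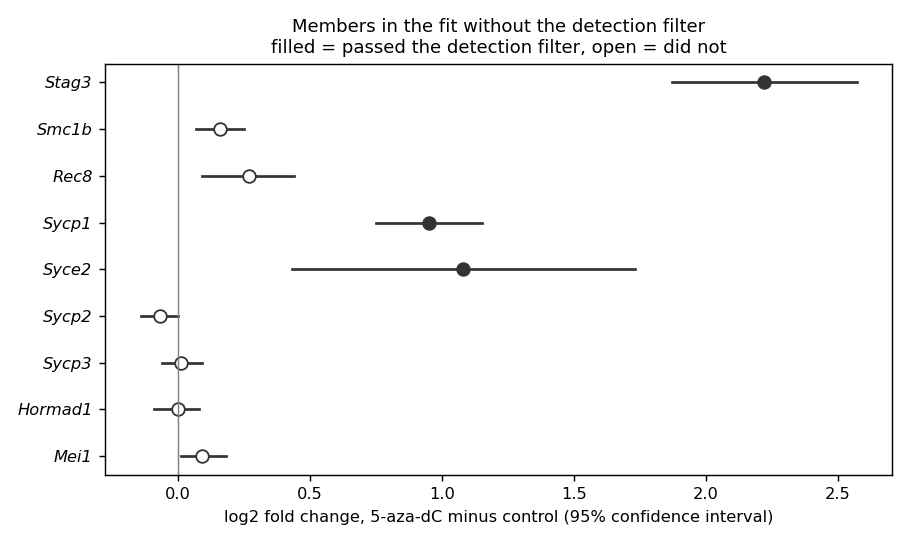
Log2 fold change of 9 members, 5-aza-dC minus control, with 95% confidence intervals from the fit without the detection filter (2 replicates per group), and filled symbols for members that passed the filter. Stag3 lies at 2.22, Syce2 at 1.08 and Sycp1 at 0.95, while the 6 open symbols lie between -0.07 and 0.27.

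The calls of Stag3 and Syce2 held under all 15 alternatives. That of Sycp1 held under the 14 in which it was tested, 13 of them with the direction fixed by the filter. The alternatives include fits that leave 1 sample in a group, which hold no spread within that group. The size of the change depended on the background correction. The log2 fold change of Stag3 ran from 1.63 with the authors' deposited values to 2.35 without control replicate 2. Among the alternatives, a block with replicate numbers crossed between groups was added after the data were seen. Without that block and the fits with 1 sample in a group, the limma adjusted p of Stag3 ran from 1.43e-09 to 0.000374. The measured difference of Sycp1, whose control values were undetected, ran from 0.43 with a background offset of 50 to 1.04 without 5-aza-dC replicate 1, with adjusted p from 3.16e-06 to 0.00146. Under the stricter detection filter Sycp1 was not tested. The log2 fold change of Syce2 ran from 0.68 with the deposited values to 1.45 without 5-aza-dC replicate 1. With the crossed block and the 1-sample fits set aside as for Stag3, its limma adjusted p ran from 0.000201 to 0.0353. For all 3 members the lowest of these p-values came from the replicate block, which leaves fewer residual degrees of freedom. Its SE was larger than as reported for Stag3 (0.18 against 0.13) and Sycp1 (0.13 against 0.10) and smaller for Syce2 (0.21 against 0.28). For Stag3 and Sycp1 the lower p-value thus does not mean a smaller spread.

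**Figure D3:**
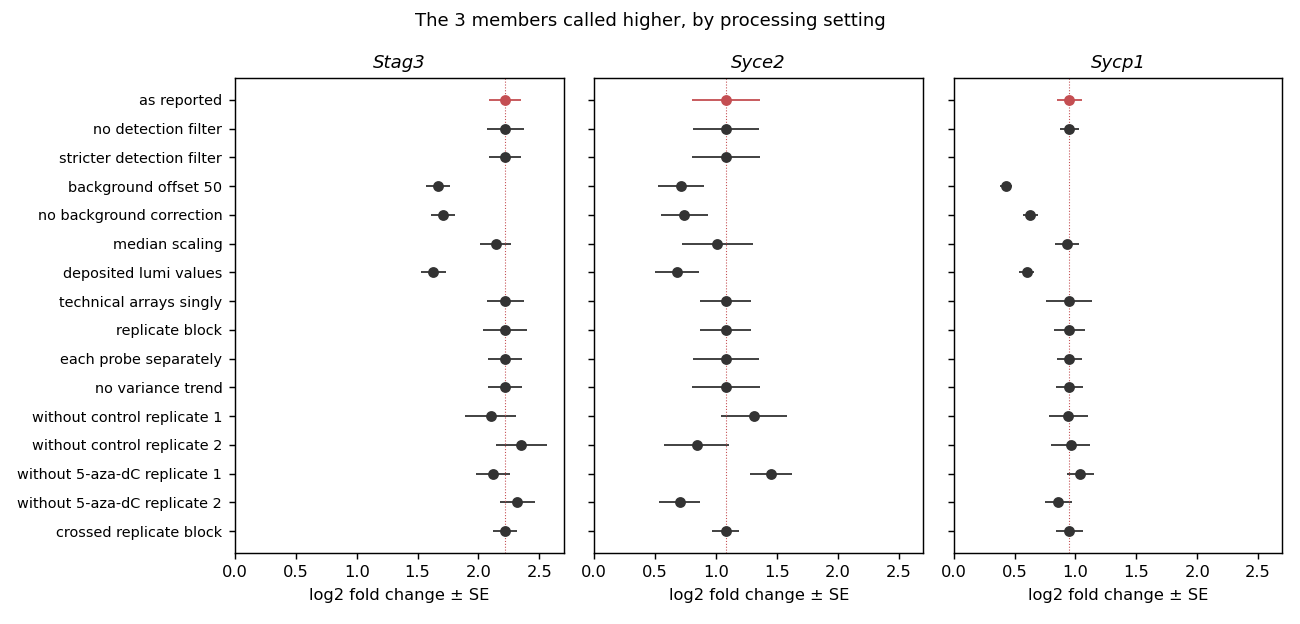
Log2 fold change (5-aza-dC minus control, bars ± SE) of Stag3, Syce2 and Sycp1 under each processing setting, with the reported value in red and as a dotted line. Every value lies above 0, from 1.63 to 2.35 for Stag3, from 0.68 to 1.45 for Syce2 and from 0.43 to 1.04 for Sycp1.

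Of 50 further genes of meiosis, the probe annotation lists a probe for 25, and 9 passed the filter. Among them 5 were called higher, 1 lower and 3 did not pass, beside 26.3% and 25.7% of all genes tested. Among the 5, Dazl and Tex11 were undetected in control and entered through 5-aza-dC alone, so they had to differ. Over the 7 others the median log2 fold change was 0.53, against -0.02 over all genes tested. Mnd1, which acts with its partner Psmc3ip in meiotic strand exchange, rose 7.50-fold (log2 fold change 2.91 ± 0.13, limma adjusted p = 5.73e-05), from a level detected on all control arrays. Psmc3ip did not pass (0.53 ± 0.20, adjusted p = 0.0713). Tex11, an X-linked gene for a crossover protein that binds the synaptonemal complex, was at least 4.23-fold higher, and Dazl, an RNA-binding protein that licenses germ cells for meiosis, at least 39.1-fold higher. Brip1, a helicase of crosslink repair, rose 2.24-fold (adjusted p = 0.00113).

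Other partners of the members were not detected. Hormad2, the second HORMA domain axis protein, and Tex12 and Six6os1, both of the central element, were undetected on every array, and no probe for Syce3 or Rad21l is listed. In all, 15 of the 25 were undetected on every array, among them Dmc1, the meiotic recombinase, Msh4 and Msh5, which stabilise crossover intermediates, and Stra8, a switch of meiotic entry. Brme1, a partner of the recombination mediator BRCA2 in mouse meiosis, was called higher (log2 fold change 0.65 ± 0.20, limma adjusted p = 0.0347). The Brme1 call was lost without the detection filter (adjusted p = 0.0545) and with median scaling (0.0559). Without control replicate 2 it was lost as well, at a log2 fold change of 0.53. Mlh3, a mismatch repair protein of crossovers, was lower (log2 fold change -0.61 ± 0.12, adjusted p = 0.00661).

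Regulators of mitotic cohesin were tested for 10 genes beside the 5 core subunits. Over the list of 17 genes 15 were tested, of which 5 were called higher, 2 lower and 8 did not pass, with a median log2 fold change of 0.21. The count of 5 lay near the 26.3% of all genes that were called higher, and 25.7% were called lower. Esco2, which acetylates cohesin in S phase (2.63-fold, adjusted p = 0.00112), Cdca5, or sororin (log2 fold change 1.15 ± 0.11, 0.000651), Sgo1, which protects centromeric cohesin (1.14 ± 0.13, 0.000971), and Espl1, or separase (1.06 ± 0.11, 0.000739), rose more than 2-fold. At the less bright probe of Sgo1 the log2 fold change was 0.56. Esco1 was higher as well, and Hdac8, which deacetylates Smc3, and the loader Mau2 were lower. Over the 3 kept probes of Mau2 the log2 fold change ran from -0.53 to -0.13. The Mau2 call was lost on leaving out either control replicate, at a log2 fold change of -0.57 without replicate 1 and -0.42 without replicate 2. These fits leave 1 control sample, and fewer genes are called in them.

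Genes known to hold germline promoters silent were mostly expressed. The list held 26 genes, 25 with a probe and 22 that passed the filter, of which 11 were called higher, 1 lower and 10 did not pass, beside 26.3% and 25.7% of all genes tested. The median log2 fold change was 0.29, against -0.02 over all genes tested. Within PRC1.6, Tfdp1, the dimer partner of E2F factors, rose 2.39-fold and L3mbtl2, its MBT domain subunit, 2.07-fold, while Ring1 was the gene called lower (log2 fold change -0.95 ± 0.18, adjusted p = 0.00728). E2f6 was higher by 0.37 ± 0.12 on the log2 scale (limma adjusted p = 0.0452) and Mga by 0.29 ± 0.09 (0.0453). Both calls were lost under several alternatives, among them the fit without the detection filter (0.0548 and 0.136). Of the DNA methylation genes Uhrf1, which brings Dnmt1 to hemimethylated DNA, rose 2.30-fold and Dnmt1 rose by 0.85 ± 0.11 on the log2 scale (adjusted p = 0.00173), and Atf7ip, a partner of the H3K9 methyltransferase Setdb1, rose 2.11-fold. Dnmt3a, Dnmt3l and Hells were undetected on every array.

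**Figure D4:**
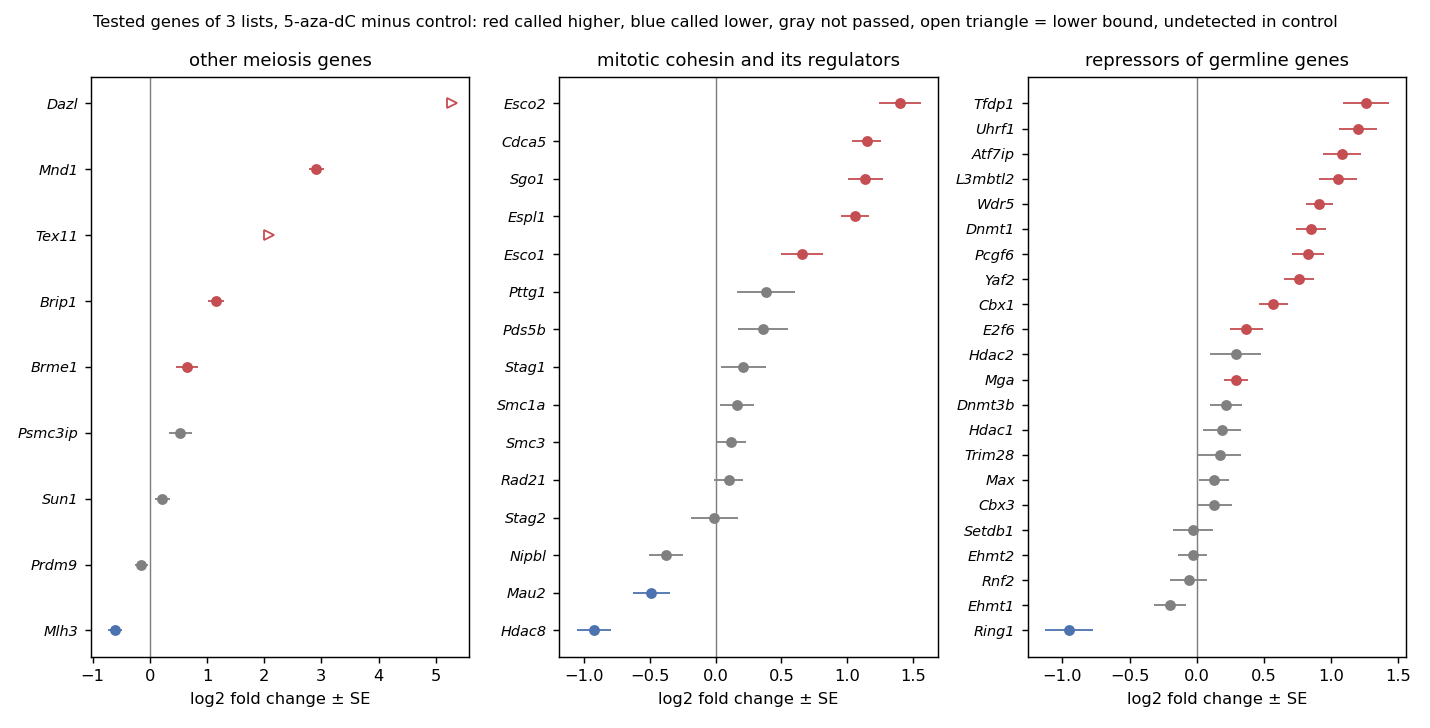
Log2 fold change (5-aza-dC minus control, bars ± SE) of the tested genes of 3 lists, in red where called higher, blue where called lower, gray where not passed, and as open triangles at their lower bound, with no error, where undetected on every control array. Dazl (at least 5.29), Mnd1 (2.91) and Tex11 (at least 2.08) lie above the other meiosis genes, the 5 core cohesin genes lie between -0.01 and 0.21, and Tfdp1 (1.26) and Ring1 (-0.95) are the extremes of the repressors.

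Markers of the cell types that normally express the members were set beside these values. Among all genes tested 26.3% were called higher and 25.7% lower. Of 17 male germ cell markers on the array 9 were undetected on every array, among them Prm1, Acrv1, Pgk2, Ldhc and Piwil1, and 6 were tested, of which 3 were higher and 0 lower (0 also at an unadjusted p under 0.05). Those were Ddx4, the germ cell helicase (at least 2.40-fold higher), Dnd1 (2.25-fold higher) and Hspa1l (at least 1.15-fold higher). The Hspa1l call was lost with technical arrays fitted singly (limma adjusted p = 0.0557) and without control replicate 1. Ddx4 and Hspa1l were undetected in control and passed the filter through 5-aza-dC alone, so the count of 3 is a description. The summed level of the 17 was 423 to 450 in control and 540 to 578 in 5-aza-dC on the background-corrected linear scale. This sum and those below include undetected genes, which still carry the offset of 16 added in processing. Sums of lists with mostly undetected genes are therefore largely this floor. Of 10 oocyte markers 7 were undetected, Zp1, Zp2 and Zp3 included, and 1, Gdf9, was higher (log2 fold change 0.97, adjusted p = 0.000769), with a summed level of 236 to 260 in control and 279 to 302 in 5-aza-dC. Of 10 markers of gonadal somatic cells 7 were undetected, Amh, Nr5a1 and Star among them, with a summed level of 220 to 232 in control and 210 to 217 in 5-aza-dC. The summed level of the 9 fibroblast markers was 33500 to 40200 in control and 16700 to 20400 in 5-aza-dC, and of the 8 tested 5 were lower and 1 higher. Lower were the collagens Col3a1 (22.6-fold), Col1a2 (6.54-fold) and Col1a1 (5.73-fold) and the PDGF receptors Pdgfrb (5.20-fold) and Pdgfra (3.22-fold), with adjusted p from 2.24e-05 to 0.00037. The higher gene was Thy1 (limma adjusted p = 0.0458), a call lost under 6 alternatives. These included the fit without the detection filter (adjusted p = 0.0559) and median scaling (0.138). The part of these shifts in the values of the members was not tested.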

How the data were processed

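Total RNA of 8 samples was measured on Illumina bead arrays. The deposited non-normalised file gives, per the file headers, a signal intensity and a detection p-value per probe and array, with no background subtraction. The second deposited file holds intensity values normalised by the authors with lumi (version not given in the sources used here), which the study's methods describe as background subtraction, variance stabilisation and robust spline normalisation. Its values are on the linear scale, rise with each array's own signal, and equal it on 1 array.

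Signals were processed with R 4.3.3 and limma 3.58.1 (files read with version 1.17.8 of the package data.table). The function neqc corrected background against a negative control distribution derived from the detection p-values, added an offset of 16, quantile-normalised the arrays and gave log2 levels. The filter kept 14308 of 25697 probes, those detected (p under 0.05) on 2 or more of the 8 arrays. Probes were named through the platform annotation, updated by RefSeq. Entrez identifiers named 23962 probes and accessions 9, the annotated symbol was kept for 7, and 1719 are not listed. Each of 9502 genes was tested by its brightest kept probe. After averaging technical arrays, groups were compared by moderated tests with a variance trend (2 residual and 3.82 prior degrees of freedom, two-sided), adjusted by the Benjamini-Hochberg method at 0.05. The number of arrays limits the precision, and an exact permutation test of 2 against 2 samples could not go below p = 0.333. For a probe with no detected array in a group, "at least" marks a fold computed with that group raised, per array, to the lowest detected level.

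The averaging and the fit were tested on simulated data for this comparison with 9502 genes, of which 200 were changed. With 50 genes at each size, 0 were recovered at a 1.25-fold change, 9 at 1.5-fold, 38 at 2-fold and 50 at 4-fold, and 7 calls were false. The simulation gave both groups the same spread. In the data 52.0% of genes were called, and replicates differed more in 5-aza-dC (SD over genes 0.322) than in control (0.166). These rates therefore do not give the sensitivity of the fit to the data. The members and gene lists were chosen with earlier results of these data known, so no set test was made. All members are named, and of the other lists every gene called with a log2 fold change beyond 1 in either direction, direct counterparts of members, and further genes chosen after their values were seen. Promoter windows came from RefSeq (GRCm38.p6), and no coordinates are given for probes because no build is named for them. The alternatives were other filters, background corrections and normalisations, single technical arrays, single probes, no variance trend, blocks on the replicate number, and each replicate left out.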

Additional observations from a re-analysis of the deposited data

How the results depend on the processing

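The counts of members called higher (3) and lower (0) were the same under 13 and 15 of 15 alternatives. Without the detection filter 5 members were called higher and with the stricter filter 2, since Sycp1 was then not tested. Leaving out 1 replicate at a time gave 3 members higher and 0 lower, 1568 to 2943 genes higher and 1676 to 2963 lower (against 2497 and 2444), 4 to 6 other meiosis genes higher, 5 to 7 mitotic cohesin genes higher and 1 to 3 lower, and 1 to 2 repressors of germline genes lower. The lowest count of higher genes, 1568, was found without control replicate 1, and 1618 without control replicate 2. Mitotic cohesin genes were lower in 1 case without either control replicate, and repressors in 2 cases without 5-aza-dC replicate 2. The cause was not tested, and a lone sample in a group is assumed to vary like the other group. The labels do not say whether same-numbered samples were paired. The deviations of same-numbered samples correlated at -0.63 over 9502 genes, which with 1 difference per group cannot settle it. With the replicate block 3 members were higher and 0 lower. A crossed block, added after seeing the data, also gave 3 and 0. Over all genes the median log2 fold change was -0.02 as reported and -0.09 with median scaling. With signals near background, the measured difference of Sycp1 depended on the background correction, and other corrections were not run for Smc1b and Rec8.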

Other observations

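Genes beside the 3 members called higher, in the order of start coordinates in the RefSeq table, did not share one direction. Next to Stag3, Gal3st4 (log2 fold change -0.32, limma adjusted p = 0.162) and Map11 (-0.10, 0.443) did not pass, and Gpc2, a glypican, was lower (-0.63 ± 0.17, adjusted p = 0.0222). Next to Syce2, Gcdh, a mitochondrial dehydrogenase, was lower (-0.75 ± 0.11, 0.00226) and Calr, the chaperone calreticulin, was higher (0.72 ± 0.13, 0.00534), while Farsa (-0.16) and Klf1 (0.28) did not pass. Next to Sycp1, Tspan2 did not pass (0.32, adjusted p = 0.0607), and Tshb, Nr1h5 and Sike1 did not pass the detection filter and were not tested. These genes were chosen after the calls of the members were known.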
